A study of Mus musculus with 8 samples.

Results

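The 7 genes described here carry, take up, cleave, interconvert, bind or store vitamin A: Rbp4, Stra6, Bco1, Lrat, Rdh10, Dhrs3 and Crabp1. They were chosen by name from the retinoid pathway, and each had exactly 1 probe among those that could be named by a RefSeq transcript accession. They are 7 of 20144 genes that had a named probe. Gene expression was measured on 8 mouse one-colour arrays with 1 array per group, so no value has a replicate and each is given with the scanner software's own error estimate.

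The sorted liver groups came from fetuses at E11.5 and at E13.5, from later fetuses at E14.5 and at E17.5, and from newborn mice at postnatal day 1 (P1), each as the fraction positive for p75NTR and negative for CD45 and Ter119. The receptor p75NTR, the product of Ngfr, is carried by hepatic stellate cells, while CD45 and Ter119 mark leukocytes and red cells. A sixth liver group was adult hepatic stellate cells (adult HSC) sorted as vitamin A-positive cells, a gate that none of the stage groups passed through. The groups set against liver were purified mesenchymal stem cells (MSC) from bone marrow and cultured fibroblasts from embryonic skin (MEF). Mouse strain, any pooling of animals and the passage of the cultured cells are not given in the sources used here, and the labels name no treatment and no engineered allele.

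Retinol travels in blood bound to RBP4, enters cells through the receptor STRA6, and is esterified by LRAT into retinyl esters that stellate cells keep in lipid droplets. BCO1 cleaves dietary beta-carotene into retinal, RDH10 oxidises retinol to retinal and DHRS3 reduces retinal back to retinol. Retinal oxidised further becomes retinoic acid, the ligand of nuclear receptors, which CRABP1 binds in the cytoplasm. The adult liver stores most of the body's vitamin A in its stellate cells.

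A level below is the log2 of the processed spot signal relative to the 75th percentile of the signals on the same array, so 0 marks that percentile. Of 43020 spots, 58.8% to 64.5% were well above background on an array, the 75th percentile lay between 243 and 416 signal units, and 0 spots were saturated. The scanner error was near 10.0% of the signal for bright spots, or 0.14 on the log2 scale. Repeated spots of 1 probe had a median SD of 0.060 to 0.088 log2 units. The log-log slope of the spike-in controls was 0.85 on the E11.5 array and 0.92 to 0.93 on the other 7. The 4 fetal arrays shared 1 slide and scan, and the P1, adult HSC, MSC and MEF arrays shared another, so that at the step between E17.5 and P1 stage and slide cannot be told apart. Of the stellate cell markers, among them Ngfr, Des and Reln, 15 or 16 of 16 were well above background on each liver array, 9 on the MSC array and 13 on the MEF array. In such bulk samples fewer cells of a type and less RNA per cell cannot be told apart.

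Lrat and Bco1 followed nearly the same course. Both had higher levels at each fetal stage than at the one before, were lower at P1 than at E17.5, were highest of all 8 arrays in adult HSC, and were not well above background in MSC or MEF. Rbp4 peaked at E14.5 together with hepatocyte genes, Stra6 and Crabp1 were lower at the later stages until neither was well above background at P1, Dhrs3 was present on every array with its lowest level in MSC, and Rdh10 was nearly flat.

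**Figure D1:**
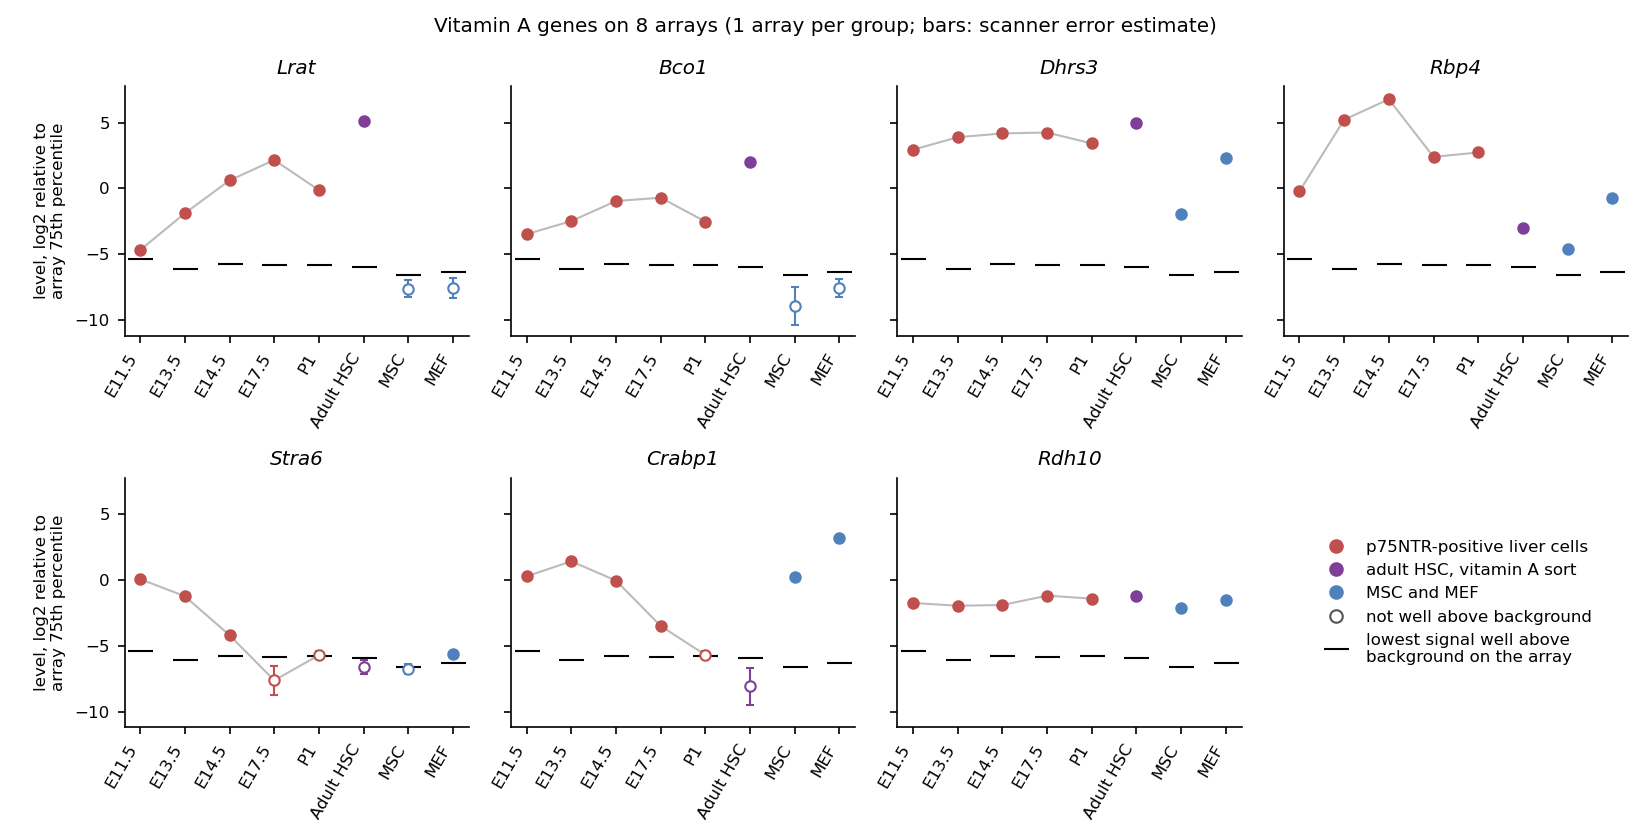
Level of each gene on the 8 arrays in log2 units relative to the array's 75th percentile, 1 point per array with the scanner error as a bar. Open points were not well above background, and black dashes mark the dimmest signal that counted as well above background there. Lrat spans -4.68 at E11.5 to 5.12 in adult HSC, while Rdh10 stays between -2.11 and -1.19.

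Lrat, the retinol-esterifying enzyme of vitamin A storage, had levels of -4.68 at E11.5, -1.89 at E13.5, 0.61 at E14.5, 2.16 at E17.5, -0.13 at P1 and 5.12 in adult HSC, against -7.60 in MSC and -7.58 in MEF. It was already well above background at E11.5, where its level exceeded the lowest detectable level of -5.36 only narrowly. The level at E17.5 was 115-fold that at E11.5, and the level in adult HSC was 889-fold that at E11.5 and 7.74-fold that at E17.5. In descending order the arrays ran adult HSC, E17.5, E14.5, P1, E13.5, E11.5, MEF and MSC, and all neighbours but MEF and MSC were further apart than the sum of their scanner errors. Those errors cover the spot only and not the spread between animals.

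Bco1, the enzyme that makes retinal from beta-carotene, had levels of -3.47 at E11.5, -2.48 at E13.5, -0.96 at E14.5, -0.70 at E17.5, -2.52 at P1 and 1.99 in adult HSC, against -8.90 in MSC and -7.55 in MEF. All 6 liver arrays were well above background and neither MSC nor MEF was. The level in adult HSC was 44.1-fold that at E11.5 and 6.45-fold that at E17.5. E17.5 and E14.5 did not differ beyond their scanner errors, nor did E13.5 and P1. Across the 8 arrays Lrat and Bco1 levels had a Pearson correlation of 0.97, and of 0.95 over the 6 liver arrays. The points of this correlation are arrays of different cells that share slides, and it is given as a description.

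The windows upstream of Lrat and Bco1 are shown because both genes moved together. That of Crabp1 is shown because, unlike them, it was highest in MEF and not well above background in adult HSC. Each holds the 250 bases before a RefSeq transcript start in GRCm38.p6, read 5′ to 3′ on the gene's strand. The Lrat window is chr3:82903975-82904224 on the minus strand, and its capitals mark a GC box (GGGCGG, searched on both strands). The Bco1 window is chr8:117095615-117095864 on the plus strand, and its capitals mark a pair of nuclear receptor core sites 1 base apart and a TATA box (TATAAA). The Crabp1 window is chr9:54764498-54764747 on the plus strand, with GC boxes in capitals.
Lrat: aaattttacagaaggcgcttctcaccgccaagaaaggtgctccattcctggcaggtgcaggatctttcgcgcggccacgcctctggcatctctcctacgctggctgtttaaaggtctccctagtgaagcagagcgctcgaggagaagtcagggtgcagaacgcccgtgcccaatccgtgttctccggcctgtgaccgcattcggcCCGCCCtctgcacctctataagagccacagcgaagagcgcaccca
Bco1: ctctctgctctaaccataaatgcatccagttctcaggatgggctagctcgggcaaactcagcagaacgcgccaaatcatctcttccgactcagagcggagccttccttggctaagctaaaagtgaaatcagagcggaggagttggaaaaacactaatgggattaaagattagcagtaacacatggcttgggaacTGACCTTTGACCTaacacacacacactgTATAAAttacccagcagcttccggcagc
Crabp1: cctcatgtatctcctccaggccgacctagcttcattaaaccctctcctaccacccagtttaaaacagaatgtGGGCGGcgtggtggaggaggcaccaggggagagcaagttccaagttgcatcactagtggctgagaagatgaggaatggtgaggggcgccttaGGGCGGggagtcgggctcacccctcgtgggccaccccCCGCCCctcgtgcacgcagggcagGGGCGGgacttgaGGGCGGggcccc

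The Bco1 repeat lay 56 to 44 bases before the start and its TATA box 28 to 23 bases before it. The pattern AGNTCA repeated after 1 free base, searched on both strands, occurred in 0.183% of 32851 promoter windows of the same length, and TATAAA in 12.4%. Each part of that repeat also matched the core site AGGTCA, which 14.02% of windows held. GGGCGG was found in 32.7% of windows, and the Crabp1 window held 5 copies. Retinoic acid response elements made of AGNTCA repeated after 5 free bases (0.198% of windows) or after 2 (0.0852%) had no match in the 12 windows listed for 6 of the 7 genes. Repeats with another spelling and bases outside these windows were not searched, so the genes may still have such elements. A match describes letters only, and nothing here measured binding.

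Rbp4, the blood carrier of retinol that hepatocytes make, had levels of -0.22 at E11.5, 5.22 at E13.5, 6.77 at E14.5, 2.40 at E17.5, 2.73 at P1 and -3.04 in adult HSC, against -4.61 in MSC and -0.71 in MEF. It was well above background on all 8 arrays. The level at E14.5 was 127-fold that at E11.5, and adult HSC, the only liver array under the MEF level, was 7.05-fold below E11.5. Every neighbouring pair in the order of arrays was further apart than the sum of the scanner errors, the closest being P1 and E17.5 with a gap of 0.33.

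Hepatocyte markers summed were also highest at E14.5 and, of the liver arrays, lowest in adult HSC, but they were lower at P1 than at E17.5, where Rbp4 was slightly higher. The summed level of 14 hepatocyte markers, as multiples of the 75th percentile, was 7.19 at E11.5, 386 at E13.5, 1243 at E14.5, 124 at E17.5, 77.7 at P1 and 5.45 in adult HSC, against 1.19 in MSC and 0.95 in MEF. Between 11 and 13 of the 14 were well above background on the stage arrays and 10 in adult HSC, against 5 in MSC and 2 in MEF. Alb, which encodes albumin, had levels of -2.03, 5.55, 7.19, 4.18 and 2.78 over the 5 stages in order. Rbp4 and the mean level of these markers had a correlation of 0.93 over the 8 arrays and 0.98 over the 6 liver arrays. How much of the Rbp4 signal came from hepatocyte RNA in the sorted fraction was not tested. In MEF Rbp4 gave a signal of 248 units. Of the hepatocyte markers, Apoa2 (-0.35) and Afp (-3.48) were well above background there, and Alb, Ttr and Apoa1 were not.

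**Figure D2:**
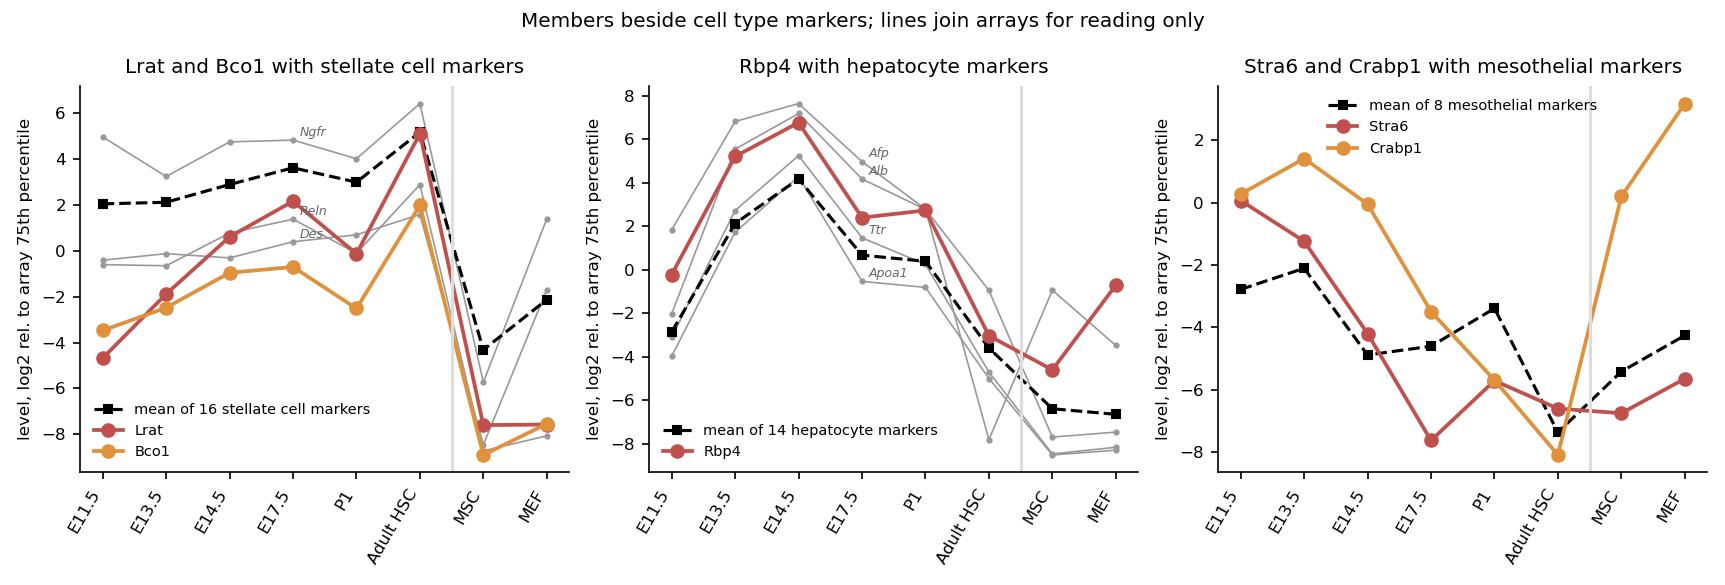
Levels in log2 units relative to the array's 75th percentile for Lrat and Bco1 beside stellate cell markers, Rbp4 beside hepatocyte markers, and Stra6 and Crabp1 beside mesothelial markers. Each point is 1 array, dashed black lines are means over a marker list, thin grey lines are single markers, and the lines join arrays for reading only. Rbp4 and the hepatocyte mean are both highest at E14.5, and Lrat, Bco1 and the stellate cell mean are all highest in adult HSC.

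Stra6, the membrane receptor that takes retinol from RBP4, had levels of 0.07 at E11.5, -1.24 at E13.5, -4.20 at E14.5, -7.63 at E17.5, -5.71 at P1 and -6.60 in adult HSC, against -6.75 in MSC and -5.65 in MEF. It was well above background at the 3 earliest stages and in MEF. The level at E14.5 was 19.2-fold below that at E11.5, and at E17.5 at least 59.6-fold below it. Among the 4 arrays where Stra6 was not well above background the values have no order.

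Mesothelial genes were also lower at E14.5, and at E17.5 they differed in both directions. All 8 mesothelial markers compared were lower at E14.5 than at E13.5, 6 of them at least 4-fold, with a median difference of -2.19. For 5 of the 8 the E14.5 signal was not well above background and entered at its bound, whereas Stra6, at -2.96, was measured on both arrays. At E17.5 relative to E14.5, 2 of the 4 markers compared were higher and 2 lower, and Msln was at least 5.30-fold higher. The summed level of the 8 markers was 7.60 at E11.5, 12.5 at E13.5, 5.24 at E14.5, 2.97 at E17.5, 6.49 at P1 and 0.10 in adult HSC, against 8.56 in MSC and 1.40 in MEF. These sums rest mostly on 1 gene, since Wt1 had the highest level of the 8 at every stage, and Msln had it in MSC (2.82). At P1, where Stra6 was not well above background, 5 of the 8 were, with Wt1 at a level of 2.39. The part of mesothelial cells in the Stra6 values was not tested.

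Crabp1, the cytoplasmic binder of retinoic acid, had levels of 0.27 at E11.5, 1.41 at E13.5, -0.05 at E14.5, -3.49 at E17.5, -5.69 at P1 and -8.09 in adult HSC, against 0.20 in MSC and 3.18 in MEF. It was the only one of the 7 genes with its highest level outside the liver. E17.5 was 13.6-fold below E11.5, P1 at least 62.5-fold and adult HSC at least 74.5-fold. In the order of levels E11.5 and MSC did not differ beyond their scanner errors, nor did MSC and E14.5.

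Dhrs3, which returns retinal to retinol, had levels of 2.94 at E11.5, 3.89 at E13.5, 4.18 at E14.5, 4.25 at E17.5, 3.42 at P1 and 4.97 in adult HSC, against -1.92 in MSC and 2.30 in MEF. All 6 liver arrays lay above both other arrays, although E11.5 exceeded MEF by only 0.64. Adult HSC was 4.08-fold above E11.5. E17.5 and E14.5 did not differ beyond their scanner errors.

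Rdh10, the retinol oxidase that opposes DHRS3, had levels of -1.75 at E11.5, -1.96 at E13.5, -1.90 at E14.5, -1.19 at E17.5, -1.42 at P1 and -1.22 in adult HSC, against -2.11 in MSC and -1.49 in MEF. It was well above background on every array, and the whole range was 0.92, or 1.89-fold. None of the 7 neighbouring pairs in its order were further apart than the sum of their scanner errors.

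Between neighbouring stages there was 1 array on each side, so no test applies and genes at least 4-fold apart were counted. At E13.5 relative to E11.5, Rbp4 was 43.3-fold and Lrat 6.94-fold higher, which makes 2 of 7 genes, where 2.14% of 14420 genes were that much higher and 1.62% lower. The 12 hepatocyte markers compared were all at least 4-fold higher at E13.5, with a median difference of 5.76, beside 5.44 for Rbp4. Of 15 stellate cell markers 10 were higher and 5 lower, 0 of them 4-fold apart. Their median difference was 0.17, beside 2.80 for Lrat. Bco1 was 1.99-fold, Crabp1 2.20-fold and Dhrs3 1.93-fold higher at E13.5, and Stra6 was 2.47-fold lower. The E11.5 array is the one with the low spike-in slope. Background correction by the normexp model failed on the E13.5 array, and with it the Crabp1 and Dhrs3 differences at this step turned to -0.16 and -0.84. With that array's parameters taken from the other arrays, a version added after seeing the data, Crabp1 stood at 0.97 and Lrat at 0.82, short of 4-fold. Both normexp versions also add an offset of 50 units to every spot, which by itself shrinks differences between dim spots. Lrat gave 9.47 units at E11.5, and for it the offset and the background correction cannot be told apart.

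At E14.5 relative to E13.5, Lrat was 5.64-fold higher and Stra6 7.78-fold lower, 2 of 7 genes, where 2.83% of 14541 genes were at least 4-fold higher and 0.681% lower. Rbp4 was 2.94-fold and Bco1 2.87-fold higher, short of that threshold. Lrat and Bco1 were higher alongside the stellate cell markers, of which 11 of 15 were higher at E14.5, with a median difference of 1.04. With normexp correction the Bco1 difference of 1.52 turned to -0.40, Lrat stood at 0.83, short of 4-fold, and Rbp4 passed it at 3.22. With the added version Stra6, at -1.26, no longer reached 4-fold. Its signal at E14.5 was 13.6 units, under the normexp offset of 50 units.

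At E17.5 relative to E14.5, Rbp4 was 20.7-fold and Crabp1 10.9-fold lower, 2 of 7 genes, where 1.75% of 14503 genes were at least 4-fold higher and 3.75% lower. All 12 hepatocyte markers compared were at least 4-fold lower, with a median difference of -4.21, beside -4.37 for Rbp4. Stra6 was at least 3.10-fold lower, and Lrat was 2.94-fold higher. Of 16 stellate cell markers 15 were higher at E17.5, with a median difference of 0.58 (1 gene at its bound).

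At P1 relative to E17.5, Lrat was 4.89-fold lower and Crabp1 at least 4.59-fold lower, 2 of the 6 genes that could be compared, where 2.39% of 14807 genes were at least 4-fold higher and 0.702% lower. Bco1 was 3.52-fold and Dhrs3 1.78-fold lower, while Rbp4 was 0.33 log2 units higher, a difference that scaling to the array median brought to -0.0025. Hepatocyte markers were lower at P1 for 11 of 13 genes, with a median difference of -0.75. With normexp correction Crabp1 differed by only -0.45, and with median scaling Bco1 also reached 4-fold (-2.15). The Crabp1 signals were 27.8 units at E17.5 and 6.65 units at P1, under the normexp offset of 50 units. Stellate cell markers were lower for 13 of 16 genes at P1, with a median difference of -0.79 and none past 4-fold, and Reln, the extracellular protein reelin, was 2.79-fold lower. Markers of other cells differed in both directions at this step. All 7 erythroid markers compared were lower at P1, 4 of them at least 4-fold. Of 9 endothelial markers 5 were higher and 4 lower, 2 of them at least 4-fold lower, with a median difference of 0.12. All 5 mesothelial markers compared were higher, 2 of them at least 4-fold. All 6 neural crest and glial markers compared were higher, 1 of them at least 4-fold. All 6 pancreatic acinar markers compared were at least 4-fold higher, with a summed level of 57.0 at P1 against 3.07 at E17.5, and Amy2a5, pancreatic amylase, stood at 4.33 at P1 against 0.24 at E17.5. All 6 portal fibroblast markers were higher, with a summed level of 180.5 at P1 against 94.3 at E17.5. The share of these cells in the Lrat and Bco1 values at P1 was not tested.

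In adult HSC relative to P1, Lrat was 37.8-fold and Bco1 22.7-fold higher and Rbp4 54.5-fold lower, 3 of the 5 genes that could be compared, where 4.58% of 14948 genes were at least 4-fold higher and 12.6% lower. Dhrs3 was 2.93-fold higher and Rdh10 1.15-fold higher. Of 16 stellate cell markers 15 were higher in adult HSC, 9 of them at least 4-fold, with a median difference of 2.32 and a summed level of 1688 in adult HSC against 362 at P1. Hepatocyte markers were lower in adult HSC for 13 of 13 genes, with a median difference of -3.83, beside -5.77 for Rbp4. All 6 portal fibroblast markers and all 6 acinar markers compared were at least 4-fold lower. Of 9 endothelial markers 4 were higher and 5 lower in adult HSC, 3 of them at least 4-fold higher, with a median difference of -0.22. Their summed level was 225 in adult HSC against 17.1 at P1, and Plvap had the highest level there (7.71). Of 5 leukocyte markers compared 3 were higher and 2 lower. The share of these cells in the Lrat and Bco1 values was not tested. Age and the vitamin A gate differ together between these arrays and cannot be told apart. Scaling to the array median, in place of the 75th percentile, shifted the median of all genes by 0.78 in this comparison. It kept the direction of the differences of the 5 members compared, raised that of Dhrs3 to 2.33, past 4-fold, and that of Rdh10 to 0.98.

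**Figure D3:**
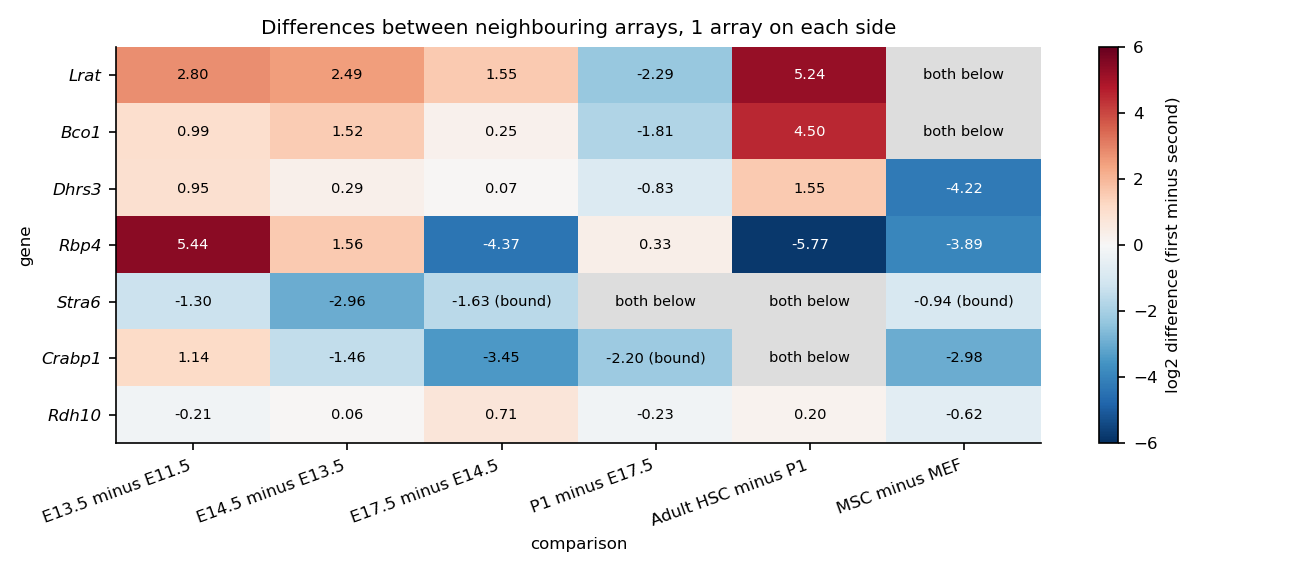
Log2 difference of each gene between neighbouring arrays, the later stage minus the earlier, adult HSC minus P1 and MSC minus MEF, with 1 array on each side. Cells marked as a bound had 1 side not well above background, and grey cells had neither side above it. The largest values are 5.44 for Rbp4 at E13.5 and 5.24 for Lrat in adult HSC on the higher side and -5.77 for Rbp4 in adult HSC on the lower side.

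A straight line over the order of the 5 stages gave no call for any of the 7 genes. By limma, 0 of 15492 genes passed a Benjamini-Hochberg adjusted p under 0.05 (0%), and 4328 (27.9%) had an unadjusted p under 0.05. With limma's variance trend and robust prior 1131 genes passed, none of them a member, and with the added normexp version Stra6 passed (limma adjusted p = 0.0427). Lrat had a slope of 1.32 ± 0.47 log2 units per stage (SE; limma adjusted p = 0.161), Stra6 of -1.79 ± 0.41 (limma adjusted p = 0.0919) and Crabp1 of -1.68 ± 0.39 (limma adjusted p = 0.0932). The slopes of Bco1 (0.37 ± 0.30), Rbp4 (0.31 ± 0.78), Rdh10 (0.14 ± 0.09) and Dhrs3 (0.13 ± 0.16) had limma adjusted p values from 0.354 to 0.831. By the computed levels none of the 7 moved the same way at all 4 steps, as 9.99% of the 15492 genes and 11.1% of those above background at every stage did. Stra6 was lower at each step up to E17.5. Its step to P1 lay between values not well above background, which have no order and also entered its slope. Over the 4 fetal arrays alone, which share a slide, the slope was 2.30 ± 0.17 for Lrat (limma adjusted p = 0.0814), 0.98 ± 0.15 for Bco1 (limma adjusted p = 0.099) and -2.60 ± 0.27 for Stra6 (limma adjusted p = 0.0814). Without the E11.5 array those of Lrat and Bco1 were 0.68 and 0.01. The spread in these fits comes from distance to a line and not from replicates.

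The comparison of liver cells with mesenchymal cells from elsewhere set the 6 liver arrays against MSC and MEF. Lrat, Bco1 and Dhrs3 were higher on all 6 liver arrays than on either other array, 3 of the 7 genes, where 12.6% of 16408 genes lay wholly higher and 10.8% wholly lower. None of the 7 passed limma's test, where 1.58% of genes did (0.841% higher and 0.737% lower). Lrat averaged 0.20 in the liver arrays and -7.59 in MSC and MEF, at least a 100.4-fold difference (fitted 7.79 ± 2.21 SE, limma adjusted p = 0.138). Bco1 averaged -1.36 in the liver arrays and -8.22 in the others, at least 34.1-fold (fitted 6.87 ± 1.32 SE, limma adjusted p = 0.0526). Dhrs3 averaged 3.94 in the liver arrays and 0.19 in the others, 13.4-fold (3.75 ± 1.01 SE, limma adjusted p = 0.127). A bound sets the mean of the liver arrays against the dimmest signal counted as well above background in MSC and in MEF.

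The remaining members overlapped between the groups. Rbp4 differed by 4.97 ± 2.48 SE (limma adjusted p = 0.313), Crabp1 by -4.29 ± 2.56 (limma adjusted p = 0.383), Stra6 by 1.98 ± 2.03 (limma adjusted p = 0.604) and Rdh10 by 0.23 ± 0.33 (limma adjusted p = 0.714), a sign that turned with scaling to the array median (-0.14). Within the second slide alone, which held P1, adult HSC, MSC and MEF, Lrat was at least 492-fold and Bco1 at least 72.8-fold higher and Crabp1 at least 182-fold lower in the liver arrays. There the differences were 4.001 for Dhrs3, 2.51 for Rbp4 and 0.49 for Rdh10, and Stra6, well above background in MEF alone of these arrays, gave no usable fold. No gene of 16002 passed by limma within that slide. With slide as a block the limma adjusted p was 0.129 for Lrat, 0.101 for Bco1 and 0.165 for Dhrs3. Bco1 passed without the adult HSC array (6.20, limma adjusted p = 0.018), and Dhrs3 passed without the MEF array (5.86, limma adjusted p = 0.00597). The liver arrays of different stages supply the spread of this fit, so its errors include the changes with stage.

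**Figure D4:**
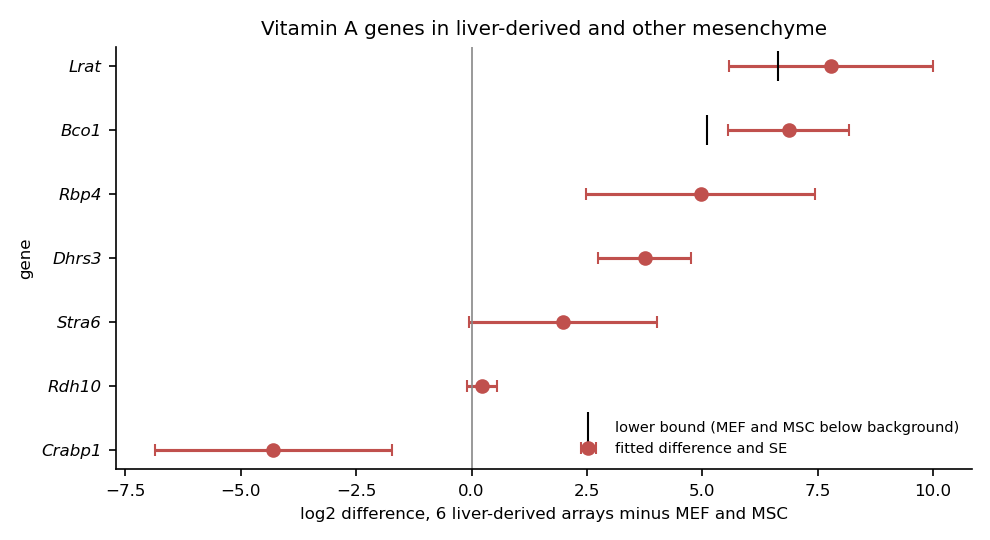
Fitted log2 difference of each gene, the 6 liver arrays minus MSC and MEF, with the standard error as a horizontal bar. Short vertical lines mark the lower bound where neither MSC nor MEF was well above background. Lrat and Bco1 lie furthest to the right at 7.79 and 6.87, and Crabp1 lies left of 0 at -4.29.

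Between the mesenchymal cells from outside the liver, 3 of the 5 genes that could be compared were at least 4-fold lower in MSC than in MEF, where 13.2% of 15183 genes were that much lower and 1.9% higher. Dhrs3 was 18.7-fold, Rbp4 14.9-fold and Crabp1 7.89-fold lower in MSC. Stra6 was at least 1.92-fold and Rdh10 1.54-fold lower in MSC. Neither array was above background for Lrat or Bco1.

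Of 63 other genes of the retinoid pathway, 62 had a named probe and 54 were detected somewhere among the 8 arrays. In the liver comparison 2 of 53 tested were higher by limma and 0 lower, with a median difference of 0.29, beside 0.01 over all genes. Rarres2, which encodes the secreted protein chemerin and responds to retinoids, was 246.7-fold higher in the liver arrays (limma adjusted p = 0.0382), with levels from 2.74 to 7.01 on them against -5.02 in MSC and -1.45 in MEF. Rarb, a retinoic acid receptor and itself a retinoic acid target, was 35.4-fold higher (limma adjusted p = 0.0196), with levels from 1.38 to 3.95 on the liver arrays against -2.85 in MSC and -1.26 in MEF. Over the stages limma called 0 of 50. Upward slopes with an unadjusted p under 0.05 numbered 12 of the 50 (24%) and downward ones 4 (8%), beside 12.5% and 15.5% of all genes, a difference that was not tested.

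The carriers and binding proteins of retinol differed in their course. Ttr, the transthyretin that holds RBP4 in blood and also 1 of the hepatocyte markers, was 57.2-fold higher at E13.5 than at E11.5, 13.8-fold lower at E17.5 than at E14.5 and 31.1-fold lower in adult HSC than at P1. Lrp2, the endocytic receptor megalin, was at least 4.41-fold lower at E14.5 than at E13.5. Crabp2, which carries retinoic acid to its receptors, was 5.58-fold lower at E14.5 than at E13.5, the step at which Stra6 was 7.78-fold lower.

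Among enzymes that make retinoic acid, Aldh1a1 had levels of -4.06, -2.68, -1.82, 1.17 and 2.27 over the 5 stages in order and 5.12 in adult HSC. It was 7.94-fold higher at E17.5 than at E14.5 and 7.19-fold higher in adult HSC than at P1, and unlike Lrat it was not lower at P1. Aldh1a2, the enzyme of the early embryo, was 7.48-fold lower at E14.5 than at E13.5, 5.77-fold higher at P1 than at E17.5 and at least 65.4-fold lower in adult HSC than at P1. Aldh1a3 was 4.23-fold higher at E13.5 than at E11.5. Adh1 and Rdh7, which oxidise retinol or related alcohols, were 9.33-fold and 12.3-fold higher at E14.5 than at E13.5. Cyp26b1, which clears retinoic acid, was 4.48-fold lower at E13.5 than at E11.5, and Cyp1b1 was at least 144-fold lower in adult HSC than at P1.

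Among receptors and lipid genes, Rxra, the common partner of retinoid receptors, was 7.40-fold higher in adult HSC than at P1, and Plin2, a coat protein of lipid droplets, was 4.79-fold higher. Fabp5, a fatty acid binder that also carries retinoic acid, was 72.7-fold lower. In all, 3 of 46 pathway genes compared (6.52%) were at least 4-fold higher and 8 (17.4%) lower in adult HSC than at P1, beside 4.58% and 12.6% of all genes, with a median difference of 0.07. Tgm2, transglutaminase 2, a retinoic acid target, was 4.40-fold higher at E13.5 than at E11.5.

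Among ester hydrolases, Ces1d and Ces1e, carboxylesterases of a tandem family whose probes may share signal, were at least 19.9-fold and 9.001-fold higher at E14.5 than at E13.5 and at least 17.1-fold and 7.52-fold lower at E17.5 than at E14.5. Ces1d was again well above background at P1, at least 2.54-fold higher than at E17.5. Cel, a carboxyl ester lipase made by the exocrine pancreas, was 20.2-fold higher at P1 than at E17.5, beside the acinar markers given above. Between MSC and MEF, Dhrs9 was at least 6.17-fold higher in MSC, and Adh1, Cd36 and Aldh1a3 were at least 190.6-fold, 134-fold and 47.5-fold lower. In that comparison 11 of 46 pathway genes (23.9%) were at least 4-fold lower in MSC and 1 (2.17%) higher, beside 13.2% and 1.9% of all genes.

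**Figure D5:**
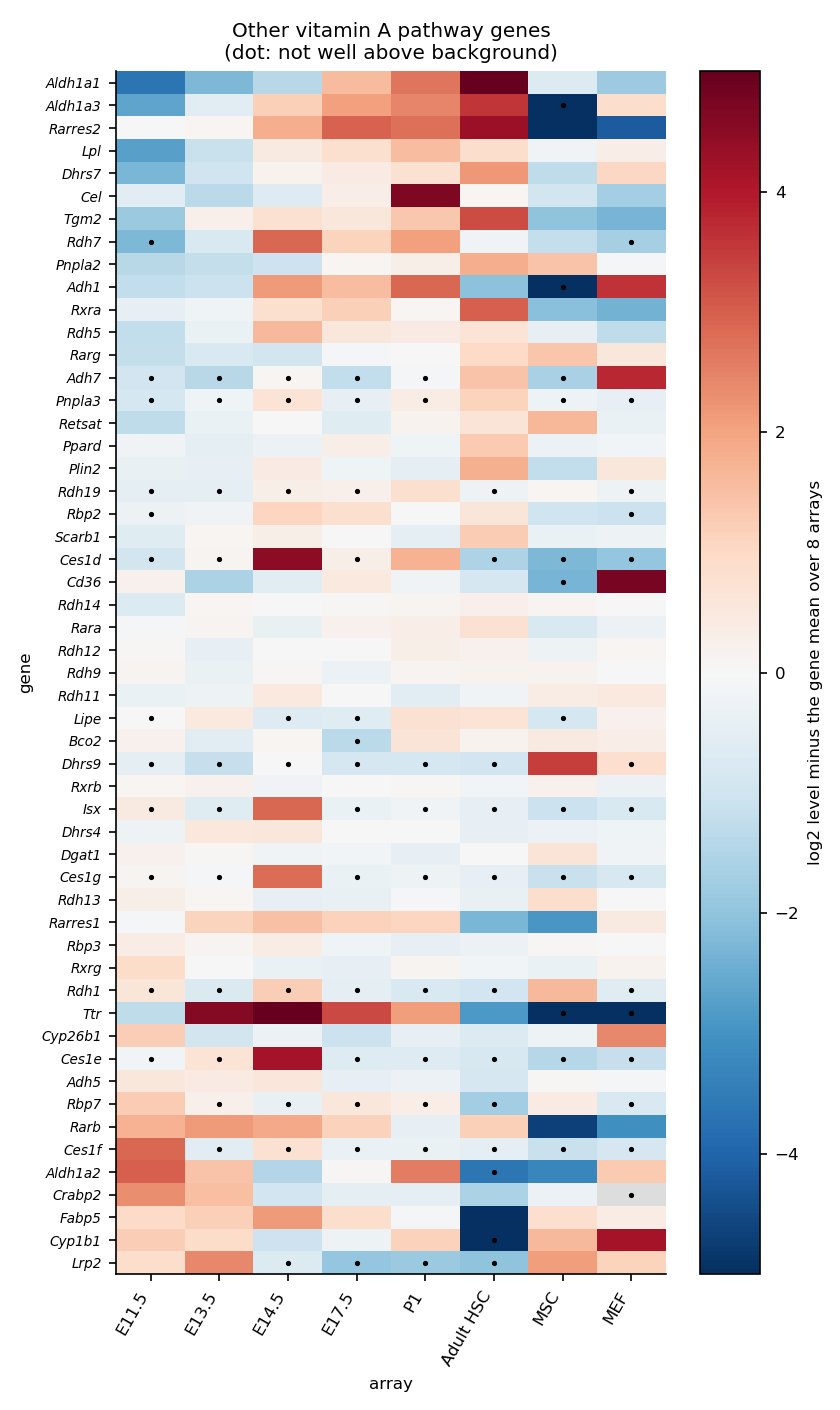
Levels of the other retinoid pathway genes detected on 1 or more arrays (1 gene is not shown), as log2 units minus the gene's mean over the 8 arrays, 1 column per array. Dots mark values not well above background, and the grey cell is a value dropped as an outlier spot. Aldh1a1 and Rarres2 reach their darkest red in adult HSC, Ttr, Ces1d and Ces1e at E14.5, and Cel at P1.

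By Pearson correlation over the 8 arrays, among 14517 genes detected on 3 or more arrays, the nearest patterns to each gene were close to 1. For Lrat they were Hhip (r = 0.99), which encodes a Hedgehog-binding membrane protein, Pam (r = 0.99) and Pygm (r = 0.99). Hhip had levels of 0.15, 1.35, 2.85, 3.79 and 1.88 over the 5 stages in order and 4.70 in adult HSC, against -1.36 in MSC and -0.79 in MEF. For Bco1 the nearest were Ccdc160 (r = 0.995), Rxra (r = 0.99) and Hgf (r = 0.99), the hepatocyte growth factor, which is also 1 of the stellate cell markers. Hgf stood at 4.49 in adult HSC and 2.09 at E17.5, against -2.84 in MSC and -2.67 in MEF.

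For Rbp4 the nearest patterns were Krt20 (r = 0.99), Stard10 (r = 0.99) and Mpdu1 (r = 0.98), of which Mpdu1 ranged only between 1.72 and 2.75. For Stra6 they were Sall2 (r = 0.99), Prokr2 (r = 0.98) and Myl7 (r = 0.98), an atrial myosin light chain with levels of -0.16 at E11.5 and -5.22 at P1. Those nearest to Crabp1, Tmem41b, AU022252 and Taf12 (r = 0.98 each), had ranges far narrower than its own. Dhrs3 was nearest to Gprc5c, Pigv and Uba7 (r = 0.99 each), all with their lowest level in MSC, and Rdh10 to Klf13 (r = 0.97), Gabrd (r = 0.97) and Cdk14 (r = 0.96). With 8 points of unlike cells such values are high for many genes, and they are given as a description.

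Among the members themselves, Dhrs3 had a correlation of 0.92 with Lrat and 0.95 with Bco1 over the 6 liver arrays, and 0.77 and 0.82 over all 8. Stra6 and Crabp1 had a correlation of 0.84 over the liver arrays and 0.40 over all 8, where Crabp1 was high in MSC and MEF and Stra6 was not. Lrat and Stra6 had -0.87 over the liver arrays and -0.21 over all 8. The mean level of 16 stellate cell markers had a correlation over the liver arrays of 0.94 with Lrat and 0.95 with Bco1, and of -0.76 with Stra6 and -0.78 with Crabp1. With the same mean Dhrs3 had 0.83, the nearly flat Rdh10 0.78 and Rbp4 -0.61. The mean level of the mesothelial markers had -0.92 with Lrat and -0.94 with Bco1 over these arrays.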

How the data were processed

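Total RNA of the 8 samples was labelled with Cy3 and hybridised to 1-colour Agilent arrays. The deposited intensity values were background-subtracted and detrended by Agilent Feature Extraction 11.5.1.1, per the file headers, with no scaling between arrays. The authors' deposited log2 values equal those signals over the array's 75th percentile, are not centred per gene, and have column medians from -4.48 to -3.55. At least 93.2% of probes on each array matched them within 0.02 after a constant offset, and they served as an alternative.

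Here each signal was divided by its array's 75th percentile and put on the log2 scale, without control and outlier spots, and spots of a probe were averaged. Of 39429 probes 26581 were named by RefSeq accession (table of GRCm38.p6). The probe with the highest mean stood for a gene. Genes well above background on at least 1 compared array entered limma 3.58.1 (R 4.3.3), and genes with a dropped value were left out. The fits were a slope over stage order and liver against MSC and MEF, called at a Benjamini-Hochberg adjusted p under 0.05. Pairs of single arrays were counted at 4-fold. A side below background gave a bound from the lowest signal well above background. With 1 array per group the number of arrays limits the precision, and p-values measure the spread between unlike samples. Both fits were also run on simulated data with independent noise, which lacked the slide and cell type structure of these arrays.

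The members, lists and rules were chosen with earlier results of these data known. The text names all members, up to 4 pathway genes a direction that pass each comparison, some fixed markers and the 3 nearest patterns. The values of 1 pathway gene are not reported here, though the counts include it. Other pathway values and markers (Rarb levels, Wt1, Msln, Apoa2) were named after their values were seen. Rbpr2, Tf and Cd68 had no named probe. Alternatives were normexp correction (offset 50), median and quantile normalization, filters, the mean of probes, the deposited table, a floor, a variance trend, slide, and leaving out each array.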

Additional observations from a re-analysis of the deposited data

How the results depend on the processing

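No paired analysis was possible because each group has 1 array and the labels carry no replicate numbers. Normexp correction failed on the E13.5 array, where the fitted background mean was -952 against -7.74 to -0.00071 on the other arrays, so a version with that array's parameters taken from the others was added after seeing the data. The fitted background SD on the E17.5 array was only 0.00014, against 0.45 to 2.16 on the arrays other than E13.5. That fit was kept in both versions. Over 16 or 17 alternatives a gene, the slopes of Lrat (0.68 to 2.30), Bco1, Stra6 and Crabp1 kept their sign. Those of Rdh10 (-0.041 with normexp), Dhrs3 (-0.13 without E11.5 to 0.42 without P1) and Rbp4 (-1.18 without E11.5 to 0.94 without P1) reversed, and the cause was not tested. In the liver comparison Lrat (3.74 to 10.08), Bco1 (2.38 to 7.96), Dhrs3 (1.64 to 5.86), Rbp4, Stra6 and Crabp1 kept their sign over 19 or 20 alternatives, and Rdh10 turned to -0.14 with median normalization and lay between -0.079 without MSC and 0.54 without MEF. No member passed the slope test except Stra6 with the added normexp version (1 member, limma adjusted p = 0.0427). For all genes the slope test gave 99 calls with quantile normalization, 610 among genes above background on every array, 1131 with a variance trend and robust prior and 721 with the added normexp version, against 0, and leaving out any array gave 0. The liver test, with 259 calls, gave 48 with normexp, 157 above background on every array, 74 with slide as a block and 0 within the second slide, and 82 (without E17.5) to 1277 (without MEF) without an array, among them 92 without E13.5, 87 without E14.5, 168 without P1 and 522 without adult HSC. There 1 member, Bco1, passed with the mean of probes (limma adjusted p = 0.0494), with the variance trend (0.0496) and without the adult HSC array (0.018). Bco1 has 1 named probe, so with the mean of probes its own levels were unchanged and only those of other genes differed. Of members at least 4-fold apart, the count at P1 against E17.5 was 1 with normexp, with the added version and above background on every array, and at the steps to E13.5 and to E14.5 it was 1 each with the added version, against 2. It was 3 at P1 against E17.5 with median and with quantile normalization, where Bco1 was added, and 4 in adult HSC against P1 with median normalization, where Dhrs3 was added, against 3. Each alternative set values below background to its own lowest value well above background. Both normexp versions also added 50 units to every spot, which shrinks differences between dim spots. The part of this offset in the normexp counts was not tested. Of the other step values, 47 moved by 0.5 log2 units or more and 283 by less. Median normalization shifted the median of all genes by -0.37 in the liver comparison, -0.33 for P1 against E17.5, 0.78 for adult HSC against P1 and 0.60 for MSC against MEF.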
